A study of Danio rerio with 35 samples.

Results

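The myosin motor of the zebrafish heart muscle is read here through 8 genes. They are the heavy chains vmhc, vmhcl and myh6, the light chains myl7 and cmlc1, the myosin binding protein mybpc3, and the folding factors smyd1b and unc45b. All 8 symbols, chosen by name, were found among the 14781 genes of the count table, and all 8 had enough counts to test. Messenger RNA of whole hearts of adult zebrafish was sequenced in 4 libraries from klf1 overexpressing fish and in 4 libraries from WT fish, with no other allele or agent in the labels. Klf1 is a zinc-finger transcription factor best known from red blood cell development, and the title of the series links it to renewal of heart muscle cells in the adult. How klf1 was overexpressed, in which cells and for how long is not in the labels, and neither is whether each library came from its own animal, so the spread behind every p-value may be technical.

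Muscle myosin is a hexamer of a pair of heavy chains, which carry the ATP-driven motor and the rod of the thick filament, and pairs of essential and regulatory light chains that stiffen the lever arm. In the zebrafish heart vmhc and vmhcl are heavy chains of the ventricle, myh6 is the heavy chain of the atrium, cmlc1 is an essential light chain and myl7 a regulatory light chain. Heavy chains do not fold unaided: Unc45b, together with Hsp90, holds the motor domain during folding, and Smyd1b is a muscle methyltransferase that binds myosin. Zebrafish that lack either factor fail to build orderly thick filaments.

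The libraries held between 9829896 and 13083853 gene counts. Values are CPM, counts scaled to a common library size with TMM factors, and a log2 fold change is klf1 minus WT with its standard error. klf1 itself read 595, 655, 733 and 602 CPM in klf1 hearts and 174, 268, 296 and 128 CPM in WT hearts (two-sided p = 0.0286 by exact permutation, the lowest that 70 ways of assigning 4 against 4 libraries can give). Both groups carried the defining transcripts of heart muscle, since the 9 thin filament genes summed to between 14098 and 16047 CPM in klf1 hearts and between 56365 and 68305 CPM in WT hearts. WT library 3 stood apart from the other WT libraries: its counts differed from theirs by a chi-square of 43.3 to 51.5 per degree of freedom, against 7.84 to 11 among the other WT pairs. The klf1 libraries differed among themselves by 19.6 to 53.4 per degree of freedom, so their spread reached as far. Ribosomal protein genes took 8.22% of its counts and 5.04% to 5.63% in the other WT libraries, while they took 8.86% to 13.3% in klf1 libraries. With library totals alone as the scale, the median over all tested genes was a log2 fold change of 0.75 in place of 0.03, so ratios between genes of the same library, which need no scaling, are given below.

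All of these genes but vmhc were lower in klf1 hearts. With a call set at an adjusted p of 0.05 in edgeR, 7 of 8 were lower and 0 higher, against 29.4% of all 10493 tested genes called lower, 32.2% called higher and 61.6% called either way. The median log2 fold change of the 8 genes was -2.36, against 0.03 over all genes tested. The klf1 and WT libraries did not overlap, with klf1 lower, for 6 of the 8, against 27.2% of tested genes. None of the 8 had klf1 libraries all above the WT libraries, against 29.8% of tested genes. The 8 genes were chosen with earlier results of these data known, so these contrasts are descriptions. In whole hearts, fewer muscle cells and less myosin RNA per muscle cell cannot be told apart. With library totals, 5 of the 8 were called lower, against 13.3% of tested genes. Their log2 fold changes were then -3.22 (myl7), -1.98 (unc45b), -1.76 (vmhcl), -1.72 (cmlc1) and -1.56 (mybpc3), each a smaller fall than with TMM factors. On that scale vmhc was called higher (log2 fold change 0.73), against 65.1% of tested genes, while myh6 (-0.45) and smyd1b (-0.12) lost their calls.

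The ventricular heavy chain vmhcl read 19008, 24302, 13206 and 24675 CPM in klf1 hearts, against 124483, 119428, 102465 and 105537 CPM in WT hearts. Every klf1 library lay far under every WT library. The log2 fold change was -2.48 ± 0.24 (SE, n = 4 each; edgeR adjusted p = 3.04e-06), 5.57-fold lower in klf1 hearts. The coefficient of variation was 26.6% in klf1 hearts and 9.42% in WT hearts, and klf1 library 3 was the lowest of all.

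Its paralog vmhc, the ventricular heavy chain used most often as a chamber marker in embryos, behaved otherwise. It read 1107, 709, 1247 and 861 CPM in klf1 hearts and 1367, 869, 713 and 929 CPM in WT hearts. The groups overlapped throughout, and the log2 fold change was 0.02 ± 0.23 (SE; edgeR adjusted p = 0.955). The lowest library for vmhcl, klf1 library 3, was the highest klf1 library for vmhc. As raw counts vmhc stood between 10800 and 18066 in klf1 libraries and between 5906 and 11875 in WT libraries.

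vmhc and vmhcl are next to each other in RefSeq's annotation of the assembly GRCz12tu, where they are listed as synonyms of myh7 and myh7l, and their spans do not overlap. The submitters list another assembly, danRer10, and the annotation used for counting is not stated, so the counted spans may differ. The microRNA gene mir736 lies within the span of vmhc and had at most 2 counts in any library. How reads shared by the paralogs were assigned is not given in the sources used here, so the level of each is uncertain. In WT libraries the vmhc count was only 6.95 to 11 per 1000 vmhcl counts, so a read exchanged between the paralogs weighs more on vmhc. With the counts of both added into one gene, the log2 fold change was -2.42.

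The atrial heavy chain myh6 read 111, 95.6, 156 and 150.3 CPM in klf1 hearts, against 267, 293, 247 and 342 CPM in WT hearts. The groups did not overlap, and the log2 fold change of -1.16 ± 0.18 (SE; edgeR adjusted p = 0.000143) was 2.24-fold lower in klf1 hearts. Among the 10493 tested genes, 1387 had a lower log2 fold change than myh6, and 315 had a lower one than vmhcl.

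Of all 8 genes the regulatory light chain myl7 fell furthest. It read 2714, 3766, 1473 and 2480 CPM in klf1 hearts, against 38788, 38435, 51845 and 31518 CPM in WT hearts. The log2 fold change was -3.94 ± 0.31 (SE; edgeR adjusted p = 5.75e-07), 15.4-fold lower in klf1 hearts, and 70 tested genes had a lower one. WT library 3 was the highest and klf1 library 3 the lowest.

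The essential light chain cmlc1 fell less. It read 3798, 4048, 2430 and 3733 CPM in klf1 hearts, against 19398, 16964, 23835 and 15659 CPM in WT hearts. The log2 fold change was -2.44 ± 0.23 (SE; edgeR adjusted p = 2.13e-06), 5.41-fold lower in klf1 hearts. The light chains moved together from library to library. Pooled over 8 libraries, the deviations of log2 CPM from the genotype means had a Pearson r of 0.934 between myl7 and cmlc1, given as a description. This was the highest r among all pairs of the 8 genes. myh6 moved against both light chains, with an r of -0.874 to myl7 and -0.772 to cmlc1. WT library 3 was the highest WT library for both light chains and the lowest for the 3 heavy chains, mybpc3 and unc45b. Without it the log2 fold changes were -3.81 for myl7, -2.32 for cmlc1, -2.53 for vmhcl, -1.24 for myh6 and -0.11 for vmhc.

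mybpc3, the cardiac myosin binding protein that lies across the thick filament and tunes the motors, read 2290, 3675, 2274 and 2505 CPM in klf1 hearts. In WT hearts it read 14813, 14724, 9382 and 13081 CPM. The groups did not overlap, and the log2 fold change was -2.27 ± 0.23 (SE; edgeR adjusted p = 4.35e-06), 4.84-fold lower in klf1 hearts. Without WT library 3 it was -2.41.

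The folding factors differed from each other. unc45b, the myosin chaperone, read 115, 106, 91.5 and 77.8 CPM in klf1 hearts, against 694, 652, 561 and 618 CPM in WT hearts. The groups were far apart, with a log2 fold change of -2.70 ± 0.16 (SE; edgeR adjusted p = 1.08e-07), 6.48-fold lower in klf1 hearts. It had the smallest adjusted p of the 8 genes.

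smyd1b, the methyltransferase, read 149, 150, 196 and 126 CPM in klf1 hearts, against 353, 364, 205 and 195 CPM in WT hearts. WT libraries 1 and 2 were high, and WT libraries 3 and 4 lay near the highest klf1 library, so that the groups overlapped. The log2 fold change was -0.85 ± 0.23 (SE; edgeR adjusted p = 0.00653), 1.8-fold lower in klf1 hearts. With library totals it was -0.12 and not called (edgeR adjusted p = 0.626).

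**Figure D1:**
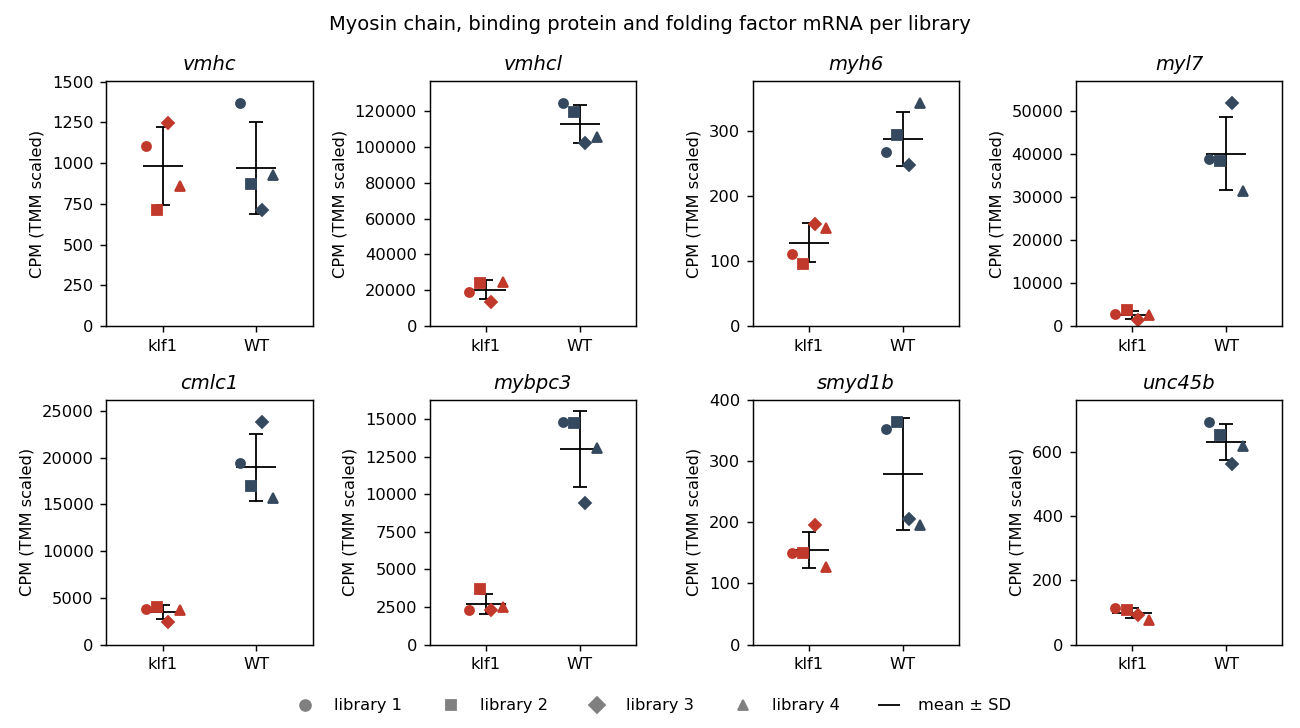
TMM-scaled CPM (linear axes from 0) of the 8 genes in each klf1 library (left) and WT library (right). Marker shapes are library numbers, which do not pair the genotypes, and bars are mean ± SD (n = 4). 6 genes are lower in klf1 hearts without overlap, smyd1b overlaps at its edge, and vmhc overlaps fully.

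Relative to all myosin rather than to the whole library, the shares of myl7, vmhc and myh6 differed between genotypes, and those of vmhcl and cmlc1 did not pass the test. The count table held 27 symbols of conventional myosin heavy and light chains, muscle and non-muscle, and their summed counts served as the total. They took 4.25 ± 0.781% of all gene counts in klf1 hearts and 13.8 ± 0.529% in WT hearts (SD, n = 4 each; exact two-sided permutation p = 0.0286). All shares are shares of counts and not of molecules, since longer transcripts give more reads.

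The share of vmhcl in myosin counts overlapped between the groups, at 56.2%, 64.7%, 54.4% and 66% in klf1 libraries and 66.3%, 66.6%, 56% and 67.3% in WT libraries. The share of cmlc1 did so as well, at 10.5 ± 0.607% in klf1 hearts and 10.7 ± 1.59% in WT hearts. All heavy chains together took 64.2 ± 4.52% in klf1 hearts and 64.8 ± 5.52% in WT hearts. The total includes the non-muscle and smooth muscle myosins, which took 17.9 ± 5.32% in klf1 hearts and 1.91 ± 0.151% in WT hearts. These heavy chain shares therefore do not give the balance of heavy to light chains among the cardiac chains alone, which was not tested. For vmhcl and cmlc1 the exact permutation p was 0.2 and 0.914 (adjusted over 5 shares, 0.25 and 0.914).

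The remaining shares moved. myl7 made up 8.02%, 10%, 6.07% and 6.63% of myosin counts in klf1 libraries, against 20.7%, 21.4%, 28.3% and 20.1% in WT libraries, 2.97-fold lower in klf1 hearts. vmhc made up 3.27%, 1.89%, 5.14% and 2.3% in klf1 libraries, against 0.728%, 0.485%, 0.389% and 0.592% in WT libraries, 5.48-fold higher in klf1 hearts. myh6 took 0.407 ± 0.169% in klf1 hearts and 0.165 ± 0.0375% in WT hearts, 2.37-fold higher. None of these 3 shares overlapped between genotypes (exact permutation p = 0.0286 each, adjusted p = 0.0476 each). The rise of vmhc and myh6 within myosin stands beside a CPM that fell for myh6 and was not called for vmhc.

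The share of non-muscle and smooth muscle myosins was larger in klf1 hearts. As 7 symbols they took 21%, 12.3%, 23.7% and 14.7% of myosin counts in klf1 libraries and 1.81%, 1.84%, 2.14% and 1.87% in WT libraries. In CPM they summed to 5736 ± 1025 in klf1 hearts and 3385 ± 402 in WT hearts, whereas the 5 cardiac chains summed to 27517 ± 6585 in klf1 hearts and 173345 ± 13355 in WT hearts (SD, n = 4 each). With these 7 left out of the total, the vmhcl share was higher in klf1 hearts by a log2 difference of 0.17 (exact permutation, adjusted p = 0.0357).

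**Figure D2:**
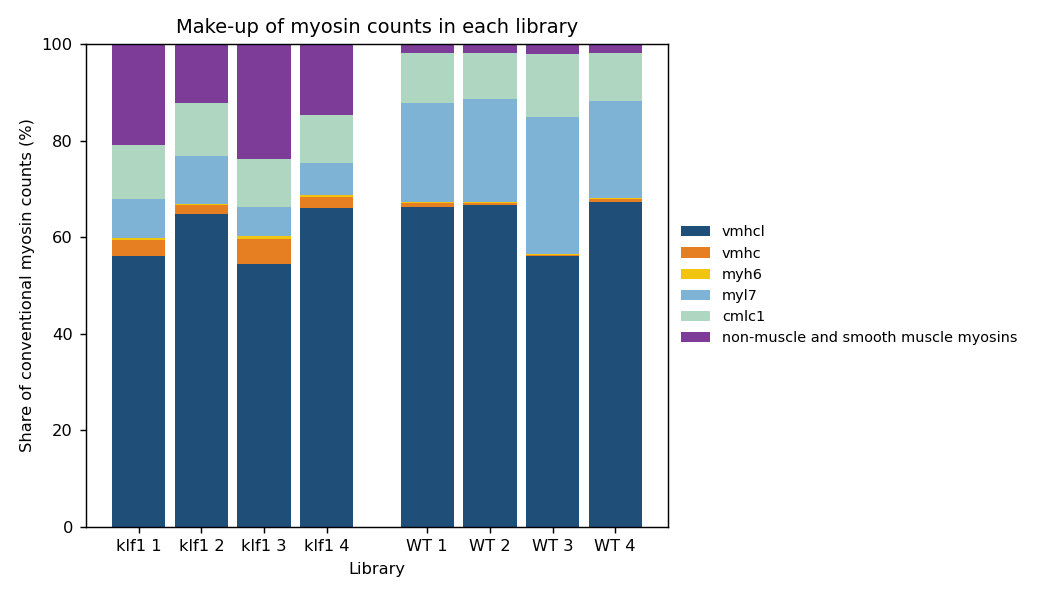
Percent of conventional myosin counts taken by each cardiac chain and by non-muscle and smooth muscle myosins, stacked per library, klf1 libraries on the left and WT libraries on the right. The light blue myl7 part is smaller and the purple non-muscle and smooth muscle part larger in all 4 klf1 libraries. The dark blue vmhcl part overlaps between genotypes.

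Ratios of counts between members of the same library gave 7 of 10 differences at an adjusted p of 0.0408 each (exact two-sided permutation p = 0.0286 each, Benjamini-Hochberg over 10 ratios), all without overlap. The 10 ratios share genes and some follow from others, so they are not separate results. In CPM, 27.2% of all tested genes were lower without overlap and 29.8% higher. Ratios of other gene pairs were not tested. vmhc stood at 58.2, 29.2, 94.5 and 34.9 per 1000 vmhcl counts in klf1 libraries, against 11, 7.28, 6.95 and 8.8 in WT libraries. The ratio was 5.82-fold higher in klf1 hearts, where vmhcl CPM was lower and vmhc CPM was not called. It was highest in klf1 library 3, where vmhcl was lowest.

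The balance of ventricular to atrial heavy chain differed too. vmhcl counts were 172, 254, 84.6 and 164 times those of myh6 in klf1 libraries, against 467, 408, 415 and 309 times in WT libraries, a 2.52-fold fall. vmhc went the other way, with 10, 7.42, 7.99 and 5.73 times the myh6 counts in klf1 libraries and 5.12, 2.97, 2.89 and 2.72 times in WT libraries. The ventricular paralogs therefore moved in opposite directions against the same atrial gene.

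The light chains also parted. cmlc1 had 1.4, 1.08, 1.65 and 1.51 times the counts of myl7 in klf1 libraries, against 0.5, 0.441, 0.46 and 0.497 times in WT libraries. The WT libraries were close to each other here, WT library 3 included, and the ratio was 2.93-fold higher in klf1 hearts. Per 1000 vmhcl counts, myl7 stood at 143, 155, 112 and 100.5 in klf1 libraries and 312, 322, 506 and 299 in WT libraries, 2.8-fold lower in klf1 hearts.

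The ratios of cmlc1, mybpc3 and unc45b to vmhcl were not called. cmlc1 read 200, 167, 184 and 151 per 1000 vmhcl counts in klf1 libraries and 156, 142, 233 and 148 in WT libraries, a log2 difference of 0.07. The ratio of mybpc3 to vmhcl differed by 0.23 and that of unc45b to vmhcl by -0.19 on the log2 scale (exact permutation, adjusted p = 0.714, 0.321 and 0.635 in the order given). unc45b was spread over 6.02, 4.36, 6.93 and 3.15 per 1000 vmhcl counts in klf1 libraries, but lay between 5.46 and 5.86 in all 4 WT libraries. These tests do not show that the ratios were equal.

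smyd1b stood at 7.83, 6.16, 14.8 and 5.12 per 1000 vmhcl counts in klf1 libraries, against 2.84, 3.05, 2 and 1.85 in WT libraries. That is 3.27-fold higher in klf1 hearts, although its CPM was lower. Against the chaperone unc45b it was 1.3, 1.41, 2.14 and 1.62 times in klf1 libraries and 0.509, 0.559, 0.366 and 0.315 times in WT libraries, 3.74-fold higher. In every klf1 library the methyltransferase had more counts than the chaperone, and in every WT library fewer.

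**Figure D3:**
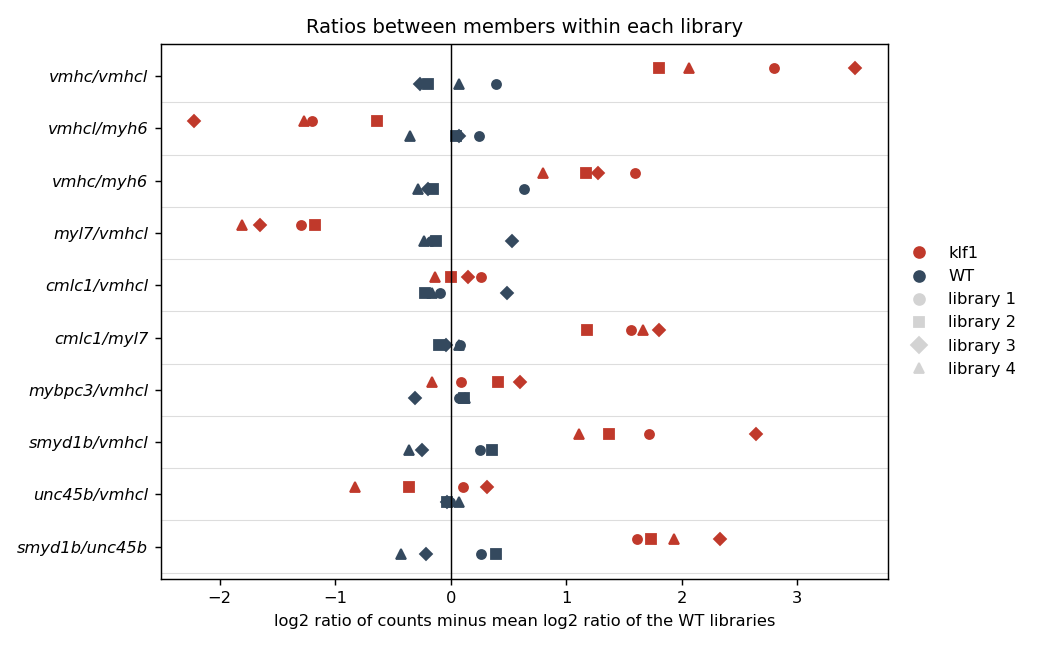
Log2 ratio of counts between members in each library, with the mean of the WT libraries set to 0, klf1 libraries in red above WT libraries in dark blue. Ratios to the right of the line are higher in klf1 hearts. 7 ratios separate the genotypes, and cmlc1, mybpc3 and unc45b against vmhcl do not.

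Set against other genes of heart muscle, the differences of these 8 genes depended on which set was taken. The first set was the thin filament, the actin track on which myosin pulls. By edgeR 29.4% of all tested genes were lower and 32.2% higher, or 13.3% and 65.1% with library totals. Of the 8 tested thin filament genes, 6 were lower and 1, tnnc1b, was higher. Their median log2 fold change was -1.36 (4 lower and 2 higher with library totals). Relative to their mean log2 CPM, myl7 was lower in klf1 hearts by a log2 difference of -2.66, unc45b by -1.37, vmhcl by -1.18 and cmlc1 by -1.11, and vmhc was higher by 1.37 (exact permutation, adjusted p = 0.0457 each). mybpc3 differed by -0.94 (adjusted p = 0.0762), or -1.13 without WT library 3 (adjusted p = 0.0457), and myh6 by 0.16 and smyd1b by 0.54 (adjusted p = 0.629 and 0.196, exact permutation). Without WT library 3 the vmhc difference was 1.19 and missed the threshold (exact permutation, adjusted p = 0.0762). The thin filament genes themselves ranged from a log2 fold change of -3.93 for the cardiac actin actc1a to 0.83 for tnnc1b. Each gene weighed the same in their mean, whatever its level. In klf1 and WT hearts tnnc1b read 57.1 and 32.1 CPM and tpm1 18.3 and 15.9 CPM, against 1636 and 24909 CPM for actc1a. Differences to a mean without the least counted genes were not tested.

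The second set held membrane and calcium handling genes of the heart muscle cell and the natriuretic peptide gene nppa. Of its 5 tested genes, 5 were lower (median log2 fold change -3.73), against 29.4% of all tested genes. Of these 5, casq2, the calcium buffer of the sarcoplasmic reticulum, differed by -4.29 ± 0.26, phospholamban, pln, by -4.05 ± 0.30, and the calcium pump atp2a2a by -3.73 ± 0.29 (SE). Smaller falls were those of slc8a1a, -2.62 ± 0.21, and nppa, -1.87 ± 0.21 (SE). Relative to the mean log2 CPM of these 5 genes, only myl7 was lower in klf1 hearts, by a log2 difference of -0.65. vmhc was higher by 3.37, smyd1b by 2.54, myh6 by 2.17, mybpc3 by 1.07, cmlc1 by 0.90, vmhcl by 0.83 and unc45b by 0.64 (exact permutation, adjusted p = 0.0286 for each of the 8 genes). For vmhcl, cmlc1 and unc45b the direction was thus opposite to that against the thin filament. Both comparisons were added after the values were seen.

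The other myosins of striated muscle found in the count table were nearly silent in both genotypes. Of 17 heavy chain symbols looked for, 7 were in the table, and of 10 light chain symbols, 8. Absent symbols gave no reading, and myh7 and myh7l, the other names of vmhc and vmhcl, were among them. The 15 other striated muscle myosin symbols summed to between 48 and 79 counts in klf1 libraries and between 39 and 61 in WT libraries, and no single symbol exceeded 43. The fast heavy chains myhz1.1, myhz1.2 and myhz2 were listed at 0 in all 8 libraries, where a count of 0 allows up to 3 counts, or 0.179 to 0.221 CPM in klf1 libraries and 0.345 to 0.378 CPM in WT libraries for counting error only. Of these myosins only smyhc3 and mylz3 had enough counts to test, and neither was called (smyhc3 was called lower without WT library 1).

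Most myosins of the non-muscle and smooth muscle list were higher in klf1 hearts. Of 14 symbols in that list, 7 were in the count table, and all 7 were tested. By edgeR 5 of the 7 were higher and 0 lower (median log2 fold change 0.80), and with library totals 6 were higher. Of all tested genes, 32.2% were called higher and 29.4% lower, or 65.1% and 13.3% with library totals. The essential light chain myl6 read 314, 197, 258 and 225 CPM in klf1 hearts, against 28.1, 25.8, 40.2 and 24.5 CPM in WT hearts (log2 fold change 3.07 ± 0.20 SE, edgeR adjusted p = 1.84e-07). The non-muscle heavy chain myh9a differed by 1.71 ± 0.21, the regulatory light chains myl9a by 0.84 ± 0.24, myl12.1 by 0.80 ± 0.14 and myl9b, at 3827 ± 608 CPM in klf1 hearts and 2390 ± 269 CPM in WT hearts, by 0.68 ± 0.17 (SE). The myl9a values overlapped between genotypes, at 637 CPM in klf1 library 2 and 772 CPM in WT library 3. Smooth muscle myh11a read 49.1 ± 14.6 CPM in klf1 hearts and 56.5 ± 18.1 CPM in WT hearts (SD, n = 4) and was not called.

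Cell cycle genes and markers of several cell types other than heart muscle differed in the same libraries. Over all tested genes, 29.4% were called lower and 32.2% higher, or 13.3% and 65.1% with library totals. All 10 cell cycle markers were higher, with a median log2 fold change of 4.64, and they summed to 770 to 1044 CPM in klf1 hearts and 47.9 to 83.2 CPM in WT hearts. Of 11 macrophage and granulocyte markers, 10 were higher and 0 lower, and they summed to 509 to 606 CPM in klf1 hearts and 90.2 to 156 CPM in WT hearts. Of 11 epicardial and fibroblast markers, 6 were higher and 0 lower, summing to 1433 to 3131 CPM in klf1 hearts and 1080 to 1383 CPM in WT hearts. Of 5 tested smooth muscle and mural markers, 2 were higher and 1 lower, near the shares of all tested genes. The 8 listed summed to 329 to 434 CPM in klf1 hearts and 210.4 to 323 CPM in WT hearts, and the mural marker pdgfrb was listed at 0. Of 9 endothelial markers, 0 were higher and 5 lower, at 1047 to 1416 CPM in klf1 hearts and 1256 to 1818 CPM in WT hearts. With library totals 3 were higher and 1 lower, a smaller share higher than the 65.1% of all tested genes. Of 7 erythroid markers, 3 were lower and 1, klf1 itself, was higher, and with library totals 3 were higher and 1 lower. The list summed to 1325 to 1981 CPM in klf1 hearts and 1110 to 1774 CPM in WT hearts. That sum includes klf1, at a mean of 646 CPM in klf1 hearts and 216 CPM in WT hearts, so it does not give the level of the other markers. Both tested lymphoid markers were higher, in a list that summed to 3.98 to 7.87 CPM in klf1 hearts and 1.84 to 3.8 CPM in WT hearts. None of the cell cycle, macrophage, fibroblast, endothelial, erythroid or lymphoid markers in the table was at 0 in all libraries. The part of cycling or non-muscle cells in the higher non-muscle and smooth muscle myosin was not tested.

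Of 20 symbols listed as partners of myosin in the thick filament and M-band, 8 were in the count table. The titin and obscurin symbols looked for were absent. Among the 6 tested genes, 3 were lower and 1 higher. Of all tested genes, 29.4% were lower and 32.2% higher. With library totals 3 of the 6 were lower and 2 higher, against 13.3% and 65.1% of all tested genes. The M-band crosslinker myom1a read 7.17 ± 0.695 CPM in klf1 hearts and 70.6 ± 11.1 CPM in WT hearts (SD, n = 4). Its log2 fold change was -3.30 ± 0.15 (SE; edgeR adjusted p = 2.2e-08). mybphb, a myosin binding protein H, differed by -3.16 ± 0.24 and the small muscle protein smpx by -2.34 ± 0.22. With TMM factors the higher member was mybpc1, known in mammals as the slow skeletal muscle relative of mybpc3. It read 273, 281, 114 and 72.3 CPM in klf1 hearts, against 18.3, 32.6, 26.4 and 27.2 CPM in WT hearts (log2 fold change 2.82 ± 0.42 SE, edgeR adjusted p = 0.000183). Its klf1 libraries were widely spread, yet all lay above the WT libraries, the reverse of mybpc3. obsl1a, a relative of the M-band protein obscurin, read 247 ± 46.3 CPM in klf1 hearts and 256 ± 19.7 CPM in WT hearts (SD, n = 4) and was called higher only with library totals (0.66).

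Of the enzymes that phosphorylate and dephosphorylate the regulatory light chain, 3 of 8 tested genes were lower and 3 higher by edgeR (1 lower and 4 higher with library totals), close to the shares of all tested genes given above. mylk3, the cardiac myosin light chain kinase, read 58.9 ± 11.2 CPM in klf1 hearts and 582 ± 61.7 CPM in WT hearts (SD, n = 4). Its log2 fold change was -3.31 ± 0.18 (SE; edgeR adjusted p = 5.85e-08). The myosin-targeting phosphatase subunit ppp1r12a differed by -0.89 ± 0.22 and the phosphatase inhibitor ppp1r14ab by -1.34 ± 0.28, and both calls were lost with library totals (-0.17 and -0.63). The catalytic subunit ppp1cab differed by 1.23 ± 0.13. That of ppp1cb, 0.35 ± 0.13, lost its call with DESeq2 size factors and without any of 6 of the 8 libraries (0.27 to 0.38 over the libraries left out).

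Of 20 tested partners of the folding factors, 5 were lower and 5 higher by edgeR, with a median log2 fold change of 0.06, and with library totals 3 were lower and 14 higher. These shares too are near those of all tested genes (29.4% lower and 32.2% higher, or 13.3% and 65.1% with library totals). unc45a, the paralog of unc45b used outside muscle, read 5.98, 6.04, 9.18 and 7.14 CPM in klf1 hearts and 1.84, 2.52, 1.57 and 2.21 CPM in WT hearts (log2 fold change 1.80 ± 0.23 SE, edgeR adjusted p = 2.8e-05), opposite to unc45b. smyd2a, a methyltransferase of the Smyd family, differed by -2.66 ± 0.21, the muscle protein apobec2a by -2.92 ± 0.21 and the small heat shock protein cryabb by -2.29 ± 0.50. The Hsp70 family member hspa8 was higher by 1.22 ± 0.18. hsp90ab1 read 4200 ± 623 CPM in klf1 hearts and 3693 ± 343 CPM in WT hearts (SD, n = 4) and was called higher only with library totals (0.90).

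**Figure D4:**
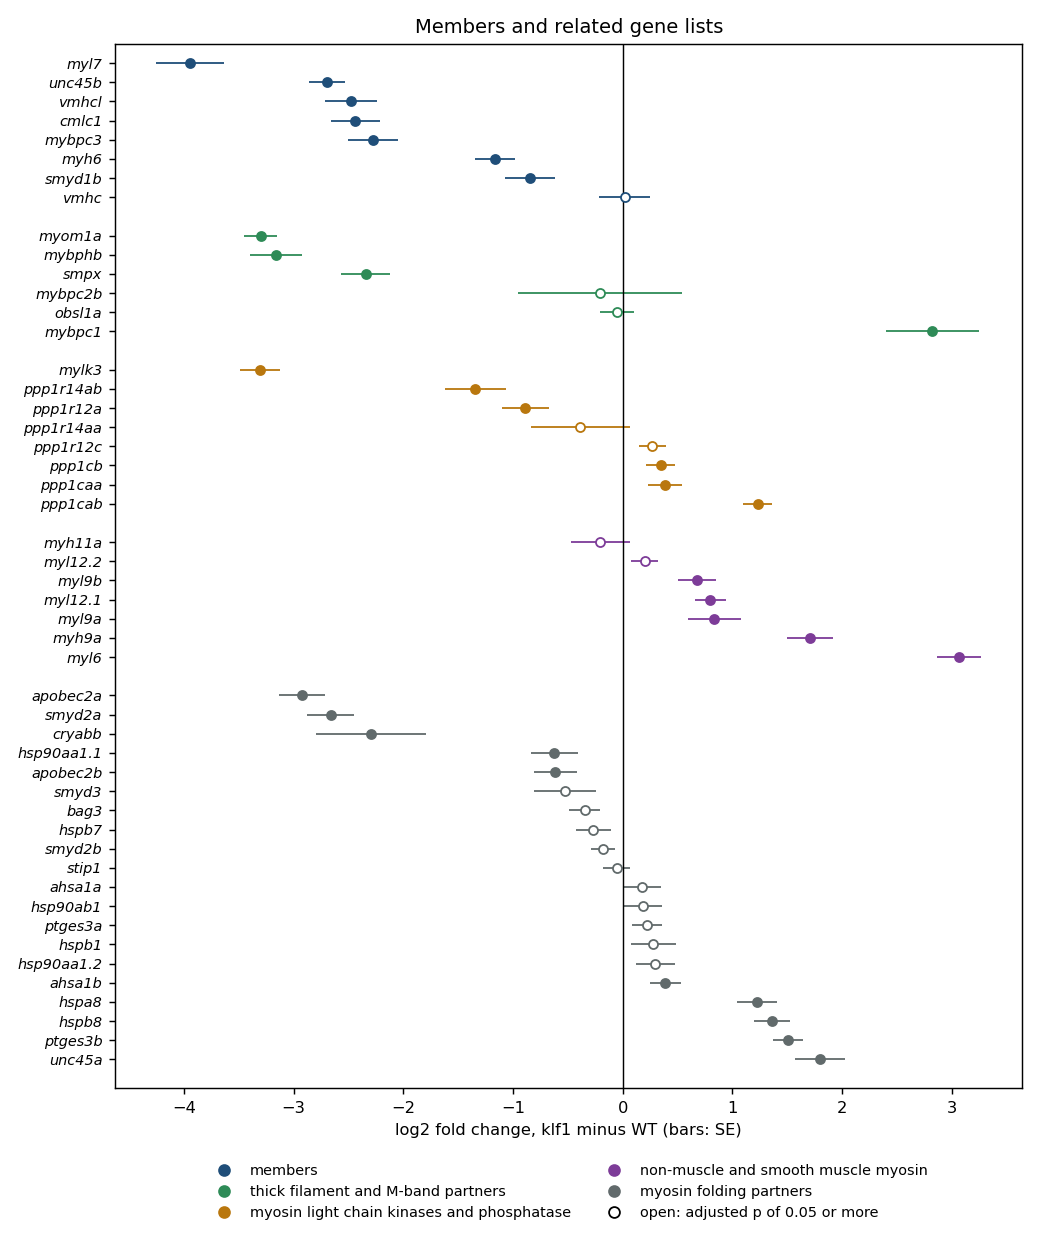
Log2 fold change, klf1 minus WT, with its standard error for the 8 genes and for 4 related lists, sorted within each group. Filled points passed an edgeR adjusted p of 0.05. 7 of the 8 cardiac genes lie left of 0, and most non-muscle and smooth muscle myosins lie right of it. mybpc1 stands alone on the right among thick filament partners.

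The genes with the most similar profile were sought among 7763 others by the root mean square difference of log2 CPM, after subtracting the WT mean, over 8 libraries. For vmhcl they were pdk4, a kinase that restrains pyruvate dehydrogenase (0.145), adssl1, a muscle enzyme of adenine nucleotide synthesis (0.145), and adck3, which serves coenzyme Q synthesis (0.158). For myl7 they were the sulfotransferase sult2st1 (0.148), phospholamban, pln (0.216), and adprhl1 (0.222). For smyd1b the nearest were pla1a (0.202), sept7b (0.212) and bcs1l (0.216). For vmhc they were zdhhc16b (0.176), chst12a (0.186) and ccnl1a (0.187), with log2 fold changes of 0.05, -0.09 and 0.09 in that order.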

How the data were processed

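The authors deposited raw counts, which per the file headers are whole numbers for each gene and library, neither normalized nor pooled. danRer10, Bowtie2 2.2.8 and deepTools 3.1.2 are listed, without roles, in the submitters' processing notes. The sources used here do not state the RNA aligner, counter, annotation or strand setting. Kits were Qiagen miRNeasy and Kapa stranded mRNA, per the labels' protocols. Of 35 samples, 27 of other assays were not analysed here. Each of the 8 libraries was identical to 1 column of the joint table that gave the gene names.

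Genes passing filterByExpr were scaled with TMM and tested with edgeR 4.0.16 in R 4.3.3 (quasi-likelihood F-test, robust, genotype as the only term, Benjamini-Hochberg over 10493 genes, call at 0.05). The standard error is the fold change divided by the root of F. On simulated data of klf1 against WT over 10384 genes, 200 genes were changed, as many up as down. Of these, 81% of genes changed by a log2 fold of 1 and 100% of those changed by 2 were recovered. In the real data 61.6% of tested genes were called, so these rates need not hold there. Shares within myosin and ratios were tested by exact permutation of the absolute difference of means of log2 values over 70 assignments. The percent of all gene counts taken by myosin was tested in the same way without the log2 step. Alternatives were other scalings and filters, DESeq2 1.42.0, limma-voom (limma 3.58.1), thinned counts, other totals and leaving out each library.

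The 8 genes and all lists were chosen with earlier results of these data known. Beside the 8 genes, the text names up to 4 called list members of largest change, up to 2 most counted, and the 3 nearest profiles of vmhcl, vmhc, myl7 and smyd1b. tnnc1b, tpm1, actc1a, casq2, atp2a2a, slc8a1a, nppa, myh11a and pdgfrb, and the myhz genes at 0, were named after their values were seen.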

Additional observations from a re-analysis of the deposited data

Results flagged for a closer look

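In 48 groups of 4 libraries, 7 had a sample far from the others by Dixon's test, and chance gives about 1 in 20. The 48 groups share genes and libraries, so they are not independent and the 7 are not separate events. WT library 3 accounts for 5 of the 7. There vmhcl took 56% of myosin counts, against 66.3% to 67.3% in the other WT libraries, and myl7 took 28.3%, against 20.1% to 21.4%. In the same library the ratio of myl7 to vmhcl was 0.506 (0.299 to 0.322 in the others), that of cmlc1 to vmhcl 0.233 (0.142 to 0.156) and that of mybpc3 to vmhcl 0.0916 (0.119 to 0.124). The ratio of vmhc to myh6 in WT library 1 was 5.12, against 2.72 to 2.97 in the other WT libraries. mybpc3 in klf1 library 2 read 3675 CPM, against 2274 to 2505 CPM in the other klf1 libraries.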

How the results depend on the processing

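Over 486 alternative values of 42 results, 442 were counted as the same. For tested values this means the same side of the threshold, and 13 of them, from 4 differences that were not called, changed sign. Numbers of called genes were counted as the same when close to the main number, and ratios of group sums had no test. vmhcl, myl7, cmlc1, mybpc3 and unc45b were called lower in all 20 alternative fits. With library totals, the calls were 6836 higher and 1398 lower, in place of 3377 and 3084, and the log2 fold changes were 0.73 for vmhc (then called), -0.45 for myh6 and -0.12 for smyd1b (no longer called). The vmhcl share of myosin differed by -0.076 with heavy chains alone as the total (called), against -0.09. It differed by 0.17 without non-muscle and smooth muscle myosins (called, direction turned). Leaving out 1 library, the shares differed by 2.18 to 2.66 (vmhc), 1.00 to 1.44 (myh6) and -1.71 to -1.46 (myl7), the ratios by 1.08 to 1.42 (vmhc to myh6) and -1.56 to -1.04 (vmhcl to myh6), and the differences to the thin filament by 1.19 to 1.54 (vmhc) and -1.13 to -0.85 (mybpc3), and those to the membrane and calcium genes by 1.94 to 2.48 (myh6), -0.76 to -0.48 (myl7), 0.82 to 1.06 (cmlc1) and 0.54 to 0.78 (unc45b), all log2. Some of these missed the threshold with 4 against 3 libraries; these shares and ratios stayed without overlap in all 8 cases. The titles share no number between genotypes, but the table's column names do; with those as a replicate block, added after the data were seen, 3215 genes were higher and 2896 lower, and no call among the 8 genes changed (vmhcl -2.52, smyd1b -0.81), while ppp1cb lost its call. Same-numbered libraries correlated at -0.178 to 0.0894 in their deviations from the genotype means over 10305 genes, and 2 of 4 klf1 libraries correlated best with their own number.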
